A study of Mus musculus with 13 samples.

Results

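Lipolysis releases fatty acids and glycerol from the triglyceride stored in the lipid droplet of the fat cell. ATGL, hormone-sensitive lipase and monoglyceride lipase act in turn, the first helped by a coactivator and held back by an inhibitor. Perilipins coat the droplet and gate the access of these enzymes when beta-adrenergic receptors raise cAMP, and CIDE proteins enlarge the droplet by fusion. The genes described here are 10 of 18820 measured genes: the 3 lipases Pnpla2, Lipe and Mgll with the related Pnpla3, the coactivator Abhd5, the inhibitor G0s2, the perilipins Plin1, Plin4 and Plin5, and Cidec. They were chosen by name, and each is read by the brightest probe set that the array annotation pairs with that gene alone. All 10 were measured and none had to pass a filter on low values.

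The RNA came from epididymal white adipose tissue, a visceral depot, of male mice aged 18 weeks. Knockout mice carried B6.129P2-P2rx7tm1Gab/J, a germline P2X7-/- allele present in every cell and backcrossed to the B6 background, and were compared with C57Bl/6 wild-type mice. P2X7 is an ion channel opened by extracellular ATP. The 4 groups were knockout mice on high-fat diet (60% of energy from fat, for 12 weeks) with 4 arrays, wild-type mice on the same diet with 3, knockout mice on low-fat chow (13% of energy from fat) with 3 and wild-type mice on chow with 3. Values are log2 expression levels, so a difference of 1 is 2-fold. The brightness of a gene also depends on its probes, so levels are compared between groups for the same gene. The labels do not say that each array held a separate animal, so a p-value here reflects how far the samples vary, which may be technical.

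Array medians over all probe sets lay between 5.72 and 5.88, and arrays of a group correlated across genes at r of 0.993 to 0.997. Of 17 adipocyte markers, Cd36, Lpl and Fabp4 had the highest signal, and the 5 epididymis markers averaged 3.64 to 4.25 on every array. P2rx7, the targeted gene, read 8.90 to 9.14 in knockout and 9.36 to 9.69 in wild-type mice on the high-fat diet, and 7.90 to 8.23 in knockout and 7.91 to 8.41 in wild-type mice on chow; the sources used here do not place its probe set within or outside the disrupted stretch, so it checks nothing about the labels. On high-fat diet, replicate 1 of the knockout group and replicate 2 of the wild-type group stood apart, each being the highest of its group for 10 of the 10 genes. Over all genes they were the highest of their groups for 31.7% and 39.3%. The same arrays were highest for 82.4% and 88.2% of adipocyte markers, for 92.9% and 100% of 14 liver markers, and for 5.56% of 18 macrophage markers each. Results that rest on these arrays are given with and without them.

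Most of the lipolytic machinery was lower on high-fat diet in both genotypes. Of the 10 genes, 8 passed limma's test as lower (adjusted p under 0.05, with Benjamini-Hochberg correction across the whole table) in knockout mice, where 19.7% of all genes fell, and the same 8 in wild-type mice, where 18.1% fell. None rose, beside 14.5% of all genes in knockout and 17.7% in wild-type mice. The median log2 change of the 10 was -0.65 in knockout mice and -0.74 in wild-type mice, beside -0.06 and -0.03 over all genes. Abhd5 and Plin5 did not pass. In whole tissue, fewer fat cells and less RNA per fat cell cannot be told apart.

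**Figure D1:**
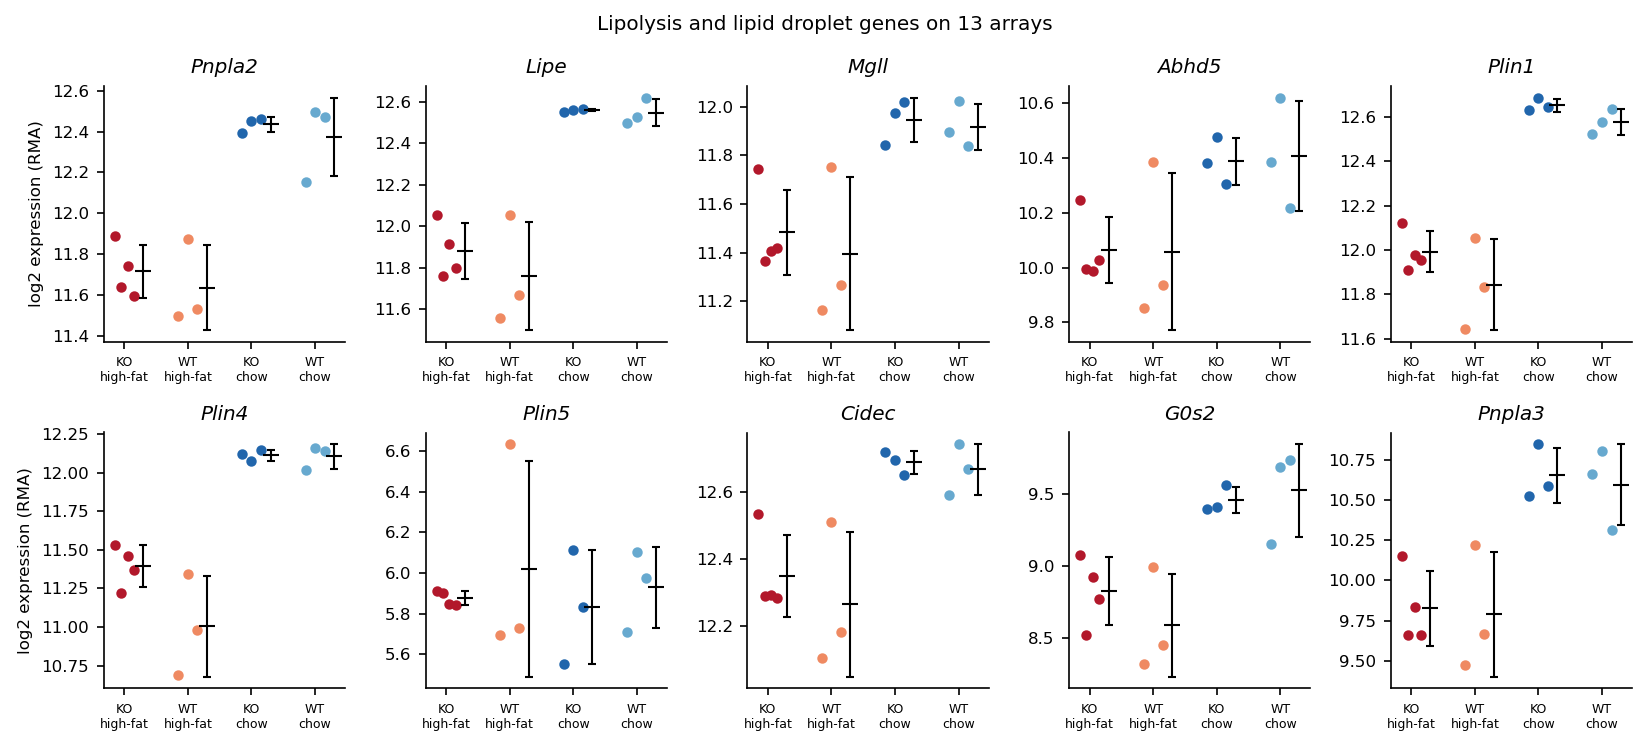
Log2 expression level of each of the 10 genes (1 panel each, own scale) on each array; points are arrays, bars the group mean ± SD (n = 4 for knockout mice on high-fat diet, 3 otherwise), and the groups run from knockout and wild-type mice on high-fat diet to knockout and wild-type mice on chow. In every panel but that of Plin5, both chow means lie above both high-fat means, and the knockout and wild-type points of a diet overlap.

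Pnpla2 encodes ATGL, the lipase that takes the first fatty acid off triglyceride. Its level was 11.89, 11.64, 11.74 and 11.60 in knockout mice and 11.50, 11.87 and 11.53 in wild-type mice on high-fat diet, against 12.40, 12.45 and 12.46 in knockout mice and 12.16, 12.50 and 12.47 in wild-type mice on chow. All 7 high-fat values lay below all 6 chow values. The Pnpla2 change was -0.72 ± 0.10 in knockout mice (SE; limma adjusted p 0.000122), 60.7% of the chow level, and -0.74 ± 0.11 in wild-type mice (adjusted p 0.00014), 59.8% of it.

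Lipe encodes hormone-sensitive lipase, which acts mainly on diglyceride and is phosphorylated by protein kinase A. On high-fat diet its level was 12.06, 11.76, 11.91 and 11.80 in knockout mice and 11.56, 12.05 and 11.67 in wild-type mice; on chow it was 12.55, 12.56 and 12.56 in knockout mice and 12.50, 12.53 and 12.62 in wild-type mice. The diets did not overlap, and the chow values spanned less than the high-fat values. Lipe changed by -0.68 ± 0.10 in knockout mice (limma adjusted p 0.000151) and by -0.79 ± 0.11 in wild-type mice (adjusted p 6.16e-05).

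Lipe is the only one of the 10 with a second probe set, which is dimmer. There the level on high-fat diet was 8.88, 8.69, 8.74 and 8.62 in knockout mice and 8.36, 8.54 and 8.20 in wild-type mice, and on chow it was 9.21, 9.29 and 9.32 in knockout mice and 9.22, 9.38 and 9.42 in wild-type mice. On this probe set every knockout value lay above every wild-type value on high-fat diet, which the brighter one did not show. Its diet change was -0.54 ± 0.09 in knockout mice and -0.98 ± 0.09 in wild-type mice, and in a limma fit over all probe sets paired with 1 gene neither the genotype difference on high-fat diet (0.37 ± 0.09, unadjusted p 0.000873, adjusted p 0.354) nor the difference between the diet changes (0.44 ± 0.13, unadjusted p 0.0039, adjusted p 0.369) passed. The sources used here do not say which part of the transcript each probe set reads.

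Mgll encodes monoglyceride lipase, which completes the breakdown to glycerol and also degrades the endocannabinoid 2-arachidonoylglycerol. Mgll read 11.74, 11.37, 11.41 and 11.42 in knockout mice and 11.17, 11.75 and 11.27 in wild-type mice on high-fat diet, against 11.84, 11.97 and 12.02 in knockout mice and 11.89, 12.02 and 11.84 in wild-type mice on chow. All high-fat values lay below all chow values, the closest being the high array of each genotype. The change was -0.46 ± 0.13 in knockout mice (limma adjusted p 0.0116) and -0.52 ± 0.13 in wild-type mice (adjusted p 0.00763).

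Pnpla3, adiponutrin, is a relative of ATGL in which a common human variant is linked to fatty liver. Its level was 10.15, 9.66, 9.83 and 9.66 in knockout mice and 9.48, 10.22 and 9.67 in wild-type mice on high-fat diet, against 10.53, 10.85 and 10.59 in knockout mice and 10.66, 10.81 and 10.32 in wild-type mice on chow. It fell by 0.83 ± 0.17 in knockout mice (limma adjusted p 0.00237), to 56.4% of the chow level, and by 0.81 ± 0.19 in wild-type mice (adjusted p 0.00397), to 57.2%. This was the largest fall of the 10 in knockout mice.

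The changes of the 2 regulators of ATGL, Abhd5 and G0s2, were not tested against each other. Abhd5, also called CGI-58, binds perilipin 1 at rest and activates ATGL once released. On high-fat diet Abhd5 read 10.24, 9.99, 9.99 and 10.03 in knockout mice and 9.85, 10.39 and 9.94 in wild-type mice, against 10.38, 10.48 and 10.30 in knockout mice and 10.38, 10.62 and 10.22 in wild-type mice on chow. The diets did not overlap in knockout mice but did in wild-type mice, through replicate 2 on high-fat diet. Its change of -0.32 ± 0.12 in knockout mice (limma adjusted p 0.0591) and of -0.35 ± 0.13 in wild-type mice (adjusted p 0.0542) missed the threshold. Leaving out the high-fat replicate 2 of wild-type mice gave a wild-type value of -0.51 (adjusted p 0.00217) and leaving out the high-fat replicate 1 of knockout mice a knockout value of -0.38 (adjusted p 0.0366), so both then passed; the knockout value also passed without 3 other single arrays of wild-type mice, and the wild-type value without replicate 3 on chow.

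G0s2 encodes the small protein that inhibits ATGL. Its level was 9.08, 8.52, 8.92 and 8.77 in knockout mice and 8.32, 8.99 and 8.45 in wild-type mice on high-fat diet, against 9.40, 9.41 and 9.57 in knockout mice and 9.15, 9.69 and 9.73 in wild-type mice on chow. No high-fat value reached a chow value, and the wild-type arrays were more spread than the knockout arrays on both diets. G0s2 fell by 0.64 ± 0.18 in knockout mice (limma adjusted p 0.0128) and by 0.94 ± 0.19 in wild-type mice (adjusted p 0.00142), to 64.4% and 52.1% of the chow level. The knockout call was lost when the chow-fed knockout replicate 3 was left out (adjusted p 0.0504).

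Among the coat proteins, Plin1, the main perilipin of the fat cell and a target of protein kinase A, moved much as Lipe did. Plin1 read 12.12, 11.91, 11.98 and 11.96 in knockout mice and 11.64, 12.05 and 11.83 in wild-type mice on high-fat diet, against 12.63, 12.69 and 12.64 in knockout mice and 12.52, 12.58 and 12.64 in wild-type mice on chow. All high-fat values lay below all chow values. The change was -0.66 ± 0.08 in knockout mice (limma adjusted p 3.02e-05) and -0.73 ± 0.09 in wild-type mice (adjusted p 1.7e-05).

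Plin4 encodes perilipin 4, also called S3-12, which coats nascent droplets in fat cells. Its level was 11.53, 11.22, 11.46 and 11.37 in knockout mice and 10.69, 11.34 and 10.98 in wild-type mice on high-fat diet, against 12.12, 12.07 and 12.15 in knockout mice and 12.01, 12.16 and 12.14 in wild-type mice on chow. The chow values lay close together, with group SDs of 0.04 and 0.08 in knockout and wild-type mice, while on high-fat diet the SDs were 0.13 and 0.33. Plin4 fell by 0.72 ± 0.12 in knockout mice (limma adjusted p 0.000348) and by 1.10 ± 0.13 in wild-type mice (adjusted p 1.37e-05), the largest fall of the 10 in that genotype, to 60.8% and 46.6% of the chow level.

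Cidec, known in mice as Fsp27, drives the fusion that makes the single large droplet of the white fat cell. The Cidec level was 12.53, 12.29, 12.29 and 12.28 in knockout mice and 12.10, 12.51 and 12.18 in wild-type mice on high-fat diet, against 12.72, 12.69 and 12.65 in knockout mice and 12.59, 12.74 and 12.67 in wild-type mice on chow. The diets did not overlap. It changed by -0.34 ± 0.09 in knockout mice (limma adjusted p 0.00984) and by -0.40 ± 0.10 in wild-type mice (adjusted p 0.00466), the smallest of the changes that passed.

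Plin5, a perilipin best known from oxidative tissues such as heart and liver, did not follow the others. Its probe set was dim, with a mean of 5.91 at percentile 42.4 of the probe sets paired with 1 gene. G0s2, the next dimmest of the 10, lay at percentile 81.2. Whether so dim a probe set could show a fall was not tested. Its level was 5.91, 5.90, 5.85 and 5.84 in knockout mice and 5.70, 6.63 and 5.73 in wild-type mice on high-fat diet, against 5.55, 6.11 and 5.83 in knockout mice and 5.71, 6.10 and 5.98 in wild-type mice on chow. All 4 groups overlapped, and the single value of 6.63 was the high array of the wild-type high-fat group. The change of Plin5 was 0.04 ± 0.20 in knockout mice (95% interval -0.39 to 0.47, limma adjusted p 0.895) and 0.09 ± 0.21 in wild-type mice (-0.37 to 0.55, adjusted p 0.786), and without the 6.63 array the wild-type value was -0.21 (adjusted p 0.298).

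**Figure D2:**
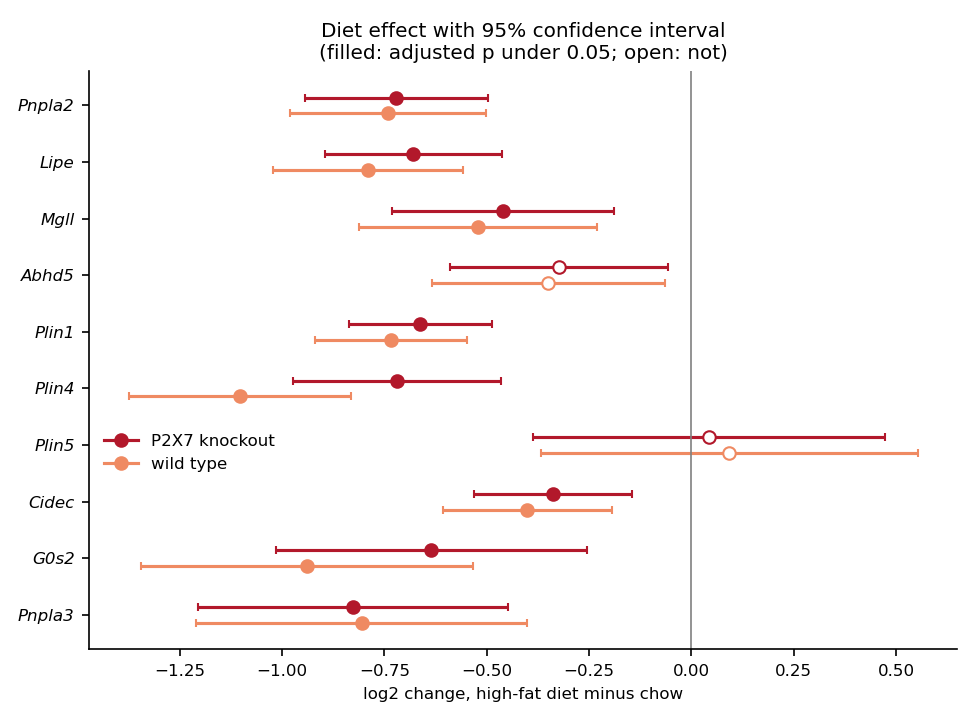
Log2 change with high-fat diet (high-fat minus chow) of each gene in knockout and in wild-type mice; points are limma estimates and bars their 95% intervals. Only the intervals of Plin5 include 0, and the intervals of the genotypes overlap for every gene.

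The diets did not overlap, with high-fat lower, for 9 of the 10 genes in knockout mice (25.6% of all genes) and for 8 of the 10 in wild-type mice (22.5% of all genes). With high-fat higher, they did so for 0 of the 10, beside 17.5% and 20.8% of all genes in knockout and wild-type mice. In the order of the group means, both chow groups stood above both high-fat groups for 9 of the 10. Neighbours that differ only in genotype overlapped in all 9, and the lower chow group did not overlap with knockout mice on high-fat diet, the next below it, in any. The exception was Plin5, with wild-type mice on high-fat diet at the top (mean 6.02 ± 0.53, SD, n = 3), overlapping every neighbour in its order.

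Whether P2X7 loss changed the level of these genes was asked on each diet. No member passed on high-fat diet, where 0.0106% of all genes passed as higher and 0.0319% as lower, or on chow, where 0.0478% and 0.085% did. None passed averaged over the diets (0.0478% of all genes higher, 0.0584% lower), and in the diet-by-genotype interaction no gene at all passed (0% in each direction). At an unadjusted p under 0.05, 1 of the 10 stood out on high-fat diet, in the average and in the interaction, and 0 on chow, beside 1394, 1361, 1829 and 1810 of the 18820 genes in the same order. On high-fat diet 9 of the 10 differences, knockout minus wild type, were positive, from -0.15 to 0.39, beside 8569 of all genes. With single arrays left out the number of positive differences ran from 6 (without replicate 1 of wild-type mice) to 10 (without their replicate 2). Replicate 1 of the wild-type arrays was the lowest of its group for all 10 genes (and for 32.0% of all genes), and without it the median difference of the 10 was 0.0079, against 0.087 with it. On chow 7 of the 10 were positive, from -0.10 to 0.08, beside 10965 of all genes; the number ran from 3 (without replicate 1 of wild-type mice) to 9 (without their replicate 2), and it was 3 after centring arrays on their medians. On the brightest probe sets, groups did not separate by genotype for any member, on high-fat diet (2.41% of all genes higher, 4.27% lower) or on chow (9.3% and 5.64%). The dimmer probe set of Lipe did separate on high-fat diet, with knockout mice higher (limma over all probe sets paired with 1 gene, unadjusted p 0.000873, adjusted p 0.354).

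Plin4 was the gene with the unadjusted difference on the brightest probe sets. On high-fat diet it was 0.39 ± 0.12 higher in knockout than in wild-type mice (95% interval 0.14 to 0.65, unadjusted p 0.00551, limma adjusted p 0.595). Only replicate 2 of the wild-type arrays, at 11.34, reached into the knockout range. Without that array the Plin4 difference was 0.56 ± 0.09 and passed (adjusted p 0.0152), and without both arrays that stood apart it was 0.51 ± 0.09 (adjusted p 0.0367). With replicate 1 of knockout mice alone left out it was 0.35 (adjusted p 0.729). It was 0.24 (adjusted p 0.999) when replicate 1 of the wild-type arrays was dropped. The 2 diet changes of Plin4 differed by 0.38 ± 0.17 (unadjusted p 0.0443, adjusted p 0.501), by 0.55 (adjusted p 0.0751) without replicate 2 of wild-type mice and by 0.23 (adjusted p 0.734) without their replicate 1, so a smaller fall in knockout mice did not pass in any setting run. On chow the Plin4 difference was 0.01 ± 0.13 (95% interval -0.26 to 0.28).

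None of the 14 liver markers passed in the genotype comparison on either diet. At an unadjusted limma p under 0.05, 13 stood out on chow, beside 1810 of all genes. There were 2 on high-fat diet, beside 1394 of all genes. All 14 were lower in knockout mice on chow with no overlap between the groups, beside 5.64% of all genes. On high-fat diet the groups overlapped for all 14, while 4.27% of all genes were lower and 2.41% higher without overlap. The liver marker mean ran from 4.91 to 5.99 in knockout and from 5.24 to 6.85 in wild-type mice on the high-fat diet, and from 5.60 to 5.65 in knockout and from 6.75 to 7.68 in wild-type mice on chow. With that mean as covariate the Plin4 difference on high-fat diet was 0.47 (adjusted p 0.282). All 10 differences, knockout minus wild type, were then positive on both diets, with a median of 0.22 on high-fat diet and 0.26 on chow, against 0.087 and 0.016 without the covariate. Over all genes the median with the covariate was -0.0082 on high-fat diet and 0.027 on chow. None of the 10 passed, and 5 on high-fat diet and 3 on chow had an unadjusted p under 0.05. Such genes were not counted over the whole table for this fit. On chow the liver marker mean did not overlap between the genotypes, so the covariate and the genotype cannot be told apart there.

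For the other members the genotype intervals of the brightest probe sets include 0. On high-fat diet Plin1 differed by 0.15 ± 0.08 (95% interval -0.03 to 0.32, limma adjusted p 0.735), G0s2 by 0.24 ± 0.18 (-0.14 to 0.62, adjusted p 0.811) and Plin5 by -0.15 ± 0.20 (-0.58 to 0.28, adjusted p 0.913). Without replicate 1 of wild-type mice the Plin1 difference was 0.049 and that of G0s2 0.10, and without their replicate 2 these were 0.25 and 0.44 (adjusted p 0.105 and 0.24). These intervals leave room for differences of either sign.

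Other transcripts of the tissue moved with the diet beside the 10 genes. Adipocyte markers averaged 11.08 to 11.42 in knockout and 10.94 to 11.42 in wild-type mice on high-fat diet, against 11.95 to 12.00 in knockout and 11.82 to 12.07 in wild-type mice on chow. Of the 17, 11 fell and 1, Lep, rose in knockout mice (median -0.54), and 12 fell and Lep rose in wild-type mice (median -0.69). Over all genes 19.7% fell and 14.5% rose in knockout mice, and 18.1% fell and 17.7% rose in wild-type mice. Macrophage markers averaged 10.28 to 10.49 in knockout and 10.29 to 10.65 in wild-type mice on high-fat diet, against 8.55 to 9.03 in knockout and 8.32 to 8.77 in wild-type mice on chow. Of the 18, 16 rose in each genotype, while 2 fell in knockout and 1 in wild-type mice. The mean over the 10 lipolysis and droplet genes was 10.43 to 10.73 in knockout and 10.20 to 10.78 in wild-type mice on the high-fat diet, and 11.01 to 11.13 in knockout and 10.96 to 11.17 in wild-type mice on chow. Like the adipocyte mean, it did not overlap between the diets and was lower on high-fat diet, while the macrophage mean was higher; the part of cell composition in this was not tested.

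**Figure D3:**
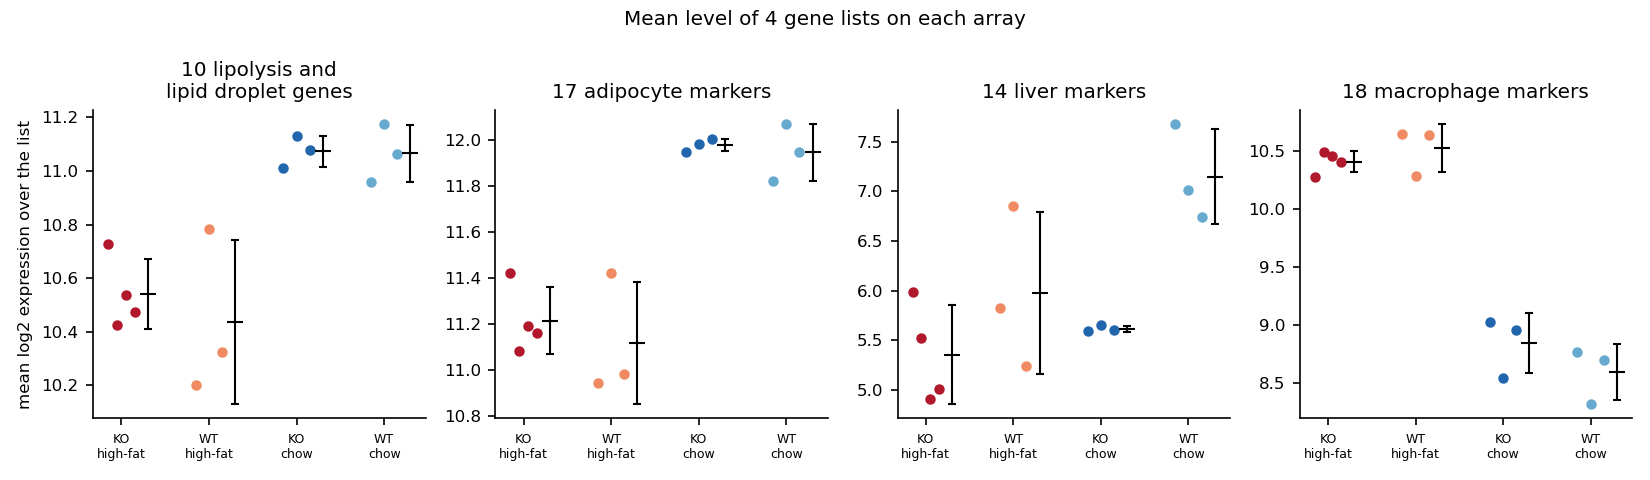
Mean log2 level over the 10 lipolysis and droplet genes, 17 adipocyte, 18 macrophage and 14 liver markers on each array, by group; points are arrays and bars the group mean ± SD. The lipolysis and adipocyte means are lower on high-fat diet and the macrophage mean is higher; the 2 high-fat arrays that stand apart are the highest of their groups for the lipolysis, adipocyte and liver means.

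When each array was centred on its adipocyte marker mean, the fall was no longer seen for most members. On that scale, where the median of all genes moves to 0.71 in knockout mice and 0.80 in wild-type mice, 4 members passed as higher and 0 as lower in knockout mice, and 4 as higher and 1 as lower in wild-type mice. Of all 18820 genes, 16955 passed as higher and 285 as lower in knockout mice, and 16928 and 318 in wild-type mice. Pnpla2 stood at 0.04 and 0.09, Lipe at 0.08 and 0.04 and Plin1 at 0.10 and 0.09 in knockout and wild-type mice, none of them passing. The members that passed as higher in both genotypes were Abhd5 (0.44 in knockout and 0.48 in wild-type mice), Cidec (0.43 and 0.43), Mgll (0.30 and 0.31) and Plin5 (0.81 and 0.92), and Plin4 passed as lower in wild-type mice (-0.27). Against the shift of all genes on this scale, Plin5 alone, with its dim probe set, lay above the median gene.

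Of the 14 liver markers, 2 fell with the diet in knockout mice (median -0.30) and 8 in wild-type mice (median -1.10), and none rose. Over all genes 19.7% fell in knockout mice and 18.1% in wild-type mice. Alb, the brightest of them, averaged 8.58 in knockout and 9.60 in wild-type mice on high-fat diet, against 9.19 in knockout and 11.08 in wild-type mice on chow. With the liver marker mean as covariate, 8 members passed as lower in knockout mice but 5 in wild-type mice. Over all genes the lower calls came to 3517 in knockout mice, against 3708 without the covariate, and to 2007 in wild-type mice, against 3409. The calls lost there were Mgll (-0.22, limma adjusted p 0.294), Cidec (-0.21, adjusted p 0.18) and Pnpla3 (-0.40, adjusted p 0.174), all in wild-type mice.

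Beyond the 10, the hormonal and cAMP control of lipolysis fell in part. Of 23 measured genes, 9 fell and 3 rose in knockout mice (median -0.24), and 10 fell and 3 rose in wild-type mice (median -0.32). Over all genes 19.7% fell and 14.5% rose in knockout mice, and 18.1% fell and 17.7% rose in wild-type mice. The count that rose in knockout mice lies near that share. Pde3b, the phosphodiesterase through which insulin lowers cAMP, changed by -1.17 ± 0.14 in knockout and -1.42 ± 0.15 in wild-type mice. Adcy6, an adenylyl cyclase that makes cAMP, changed by -0.85 ± 0.11 and -1.002 ± 0.12 in the same order. Insr, the insulin receptor, changed by -0.67 ± 0.11 in knockout and -0.90 ± 0.11 in wild-type mice, and Gnai1, an inhibitory G protein subunit, by -0.86 ± 0.14 and -1.06 ± 0.15. The fallen genes named here thus held a maker of cAMP and parts that restrain it. Another adenylyl cyclase and another inhibitory G protein subunit were among the genes that rose in both genotypes. The beta3-adrenergic receptor gene was not analysed here, having no probe set paired with it alone.

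Transcription factors known to act on lipolytic genes fell in larger part, 8 of 15 in knockout mice with 1 rising (median -0.51) and 9 of 15 in wild-type mice with 2 rising (median -0.61). The shares of all genes in knockout and wild-type mice were 19.7% and 18.1% falling and 14.5% and 17.7% rising. Cebpa, a master regulator of fat cell differentiation, changed by -0.98 ± 0.11 in knockout and -1.01 ± 0.12 in wild-type mice. Mlxipl, the carbohydrate-responsive factor ChREBP, changed by -1.13 ± 0.14 in knockout and -1.41 ± 0.15 in wild-type mice. Nr3c1, the glucocorticoid receptor, changed by -0.52 ± 0.07 in knockout and -0.58 ± 0.07 in wild-type mice. Pparg, the nuclear receptor that drives many genes of the fat cell, changed by -0.51 ± 0.08 in knockout and -0.69 ± 0.09 in wild-type mice, and its partner Rxra by -0.69 ± 0.09 and -0.61 ± 0.10.

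Other hydrolases split into those that fell and those that rose. Of 22 genes, 7 fell and 5 rose in knockout mice (median -0.13), and 9 fell and 6 rose in wild-type mice (median -0.20). The shares of all genes in knockout and wild-type mice were 19.7% and 18.1% falling and 14.5% and 17.7% rising. Ces1d, a carboxylesterase with triglyceride hydrolase activity in mouse fat cells, changed by -1.76 ± 0.17 in knockout and -2.04 ± 0.19 in wild-type mice. In contrast Lipa, the acid lipase of the lysosome, rose by 1.79 ± 0.13 in knockout and 2.13 ± 0.14 in wild-type mice. Nceh1, a cholesteryl ester hydrolase of macrophages, rose by 2.25 ± 0.13 in knockout and 2.52 ± 0.14 in wild-type mice, and Abhd12, a lysophospholipid lipase, by 1.23 ± 0.10 and 1.44 ± 0.10.

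The remaining droplet coat and growth proteins showed no shared direction. Of 17 genes, 3 rose and 3 fell in knockout mice (median 0.0013), and 6 rose and 3 fell in wild-type mice (median 0.0016). Over all genes 14.5% rose and 19.7% fell in knockout mice, and 17.7% rose and 18.1% fell in wild-type mice. Both knockout counts of this list and its count of falls in wild-type mice lie near those shares. Plin2, the perilipin found on droplets of most cell types, macrophages included, rose by 0.85 ± 0.06 in knockout and 1.18 ± 0.06 in wild-type mice, opposite to Plin1 and Plin4. Hilpda, a hypoxia-induced droplet protein that inhibits ATGL, rose by 0.84 ± 0.16 in knockout and 1.16 ± 0.17 in wild-type mice, opposite to G0s2. Aup1, a protein of the droplet and endoplasmic reticulum, rose by 0.14 ± 0.05 in knockout and 0.34 ± 0.05 in wild-type mice. Ldah, a droplet-associated hydrolase, fell by 0.37 ± 0.07 in knockout mice, while its value of -0.12 ± 0.08 in wild-type mice did not pass (adjusted p 0.27). Cav1, the main protein of caveolae, changed by -0.24 ± 0.06 in knockout and -0.37 ± 0.06 in wild-type mice. Macrophage markers rose by a median of 1.83 in knockout and 2.16 in wild-type mice beside Plin2, Lipa and Nceh1, and their part in these rises was not tested. No gene of these 4 lists passed in any of the 4 comparisons that involve genotype.

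**Figure D4:**
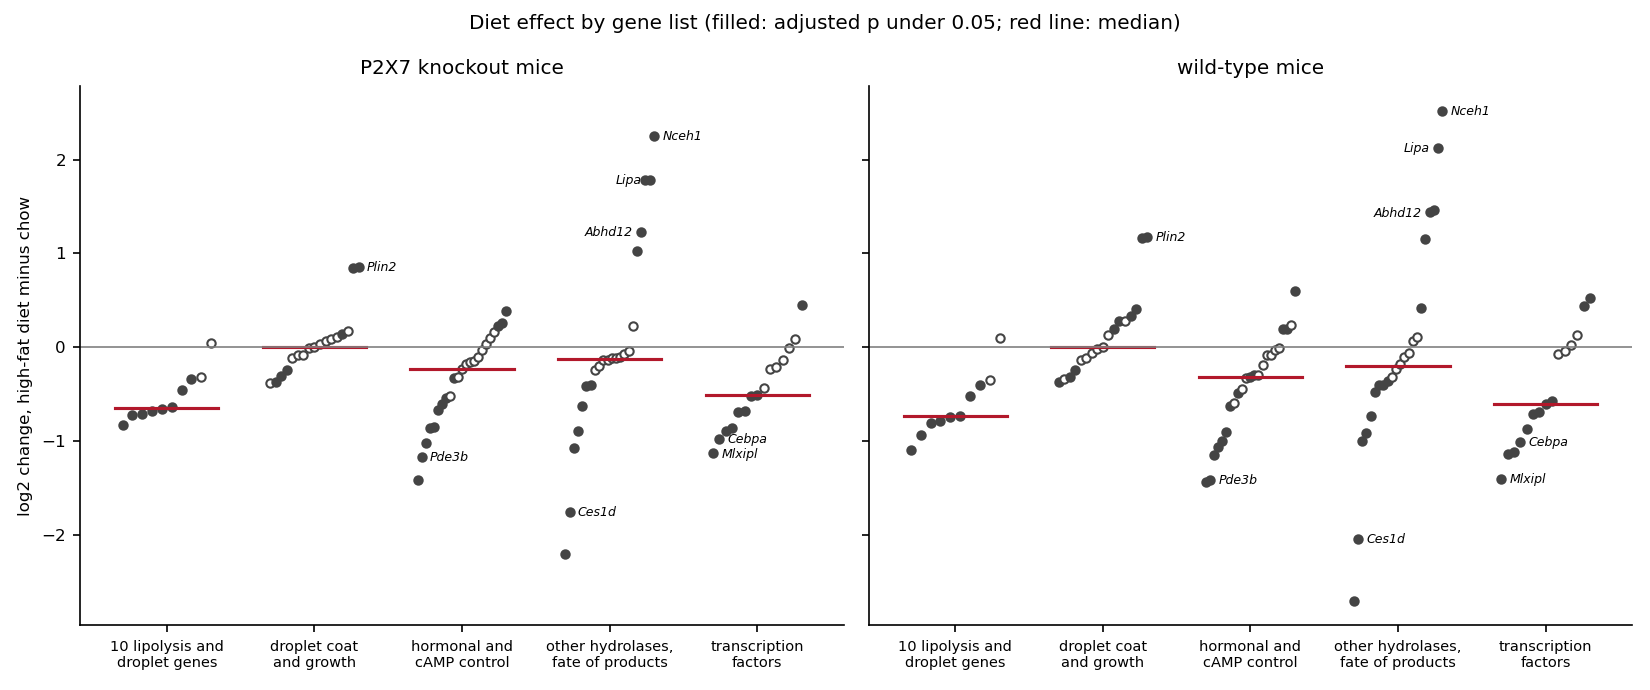
Log2 change with high-fat diet of the 10 genes and of each gene of the 4 wider lists, in knockout mice (left) and wild-type mice (right); filled points passed the test, open points did not, and red lines are list medians. The 10 genes and the transcription factors lie mostly below 0, the droplet coat list lies around 0 and the other hydrolases spread both ways.

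The genes whose levels ran most like each member were found by the root mean square difference of log2 level over the 13 arrays, each gene centred on its own mean. For Pnpla2 these were Clpp (0.0392) and Rab34 (0.054), for Lipe Mfn2 (0.0485) and Slc1a5 (0.0561), for Mgll Pex19 (0.0531) and Map1lc3a (0.0688), and for Abhd5 Lonp1 (0.0699) and Rhbdl3 (0.0744). For Plin1 they were Ptprg (0.0561) and Mfn2 (0.0569), for Plin4 Prkaa2 (0.0775) and Enpp5 (0.0791), and for Cidec Parva (0.0534) and Pex19 (0.0548). For G0s2 they were Nudt12 (0.0966) and Tshr (0.0972), and for Pnpla3 Kdr (0.0973) and Sntb1 (0.0984). The median gene differed from these members by 0.23 to 0.479. Lipe and Plin1 were the closest pair of members (0.052). Plin5 had no near neighbour of that kind: Adh4 (0.137) and Aqp8 (0.146) came first, beside 0.299 for the median gene, and its nearest member was Abhd5 (0.266). All of these genes share the 13 arrays and the diet contrast, so likeness here is a description.

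In the RefSeq table of the GRCm38.p6 assembly, used for names, gene order and promoters because the sources used here do not name the array's build, Plin4 and Plin5 are neighbours on chromosome 17. Of these neighbours, Plin4 fell with the diet in both genotypes and Plin5, read by a dim probe set, did not pass in either. The difference between the 2 genes was not tested. Pnpla2, Lipe and Plin1 lie on chromosome 7, Mgll and Cidec on chromosome 6, and Pnpla3 on chromosome 15 next to Pnpla5. Since 8 members fell together, the 250 bases before each RefSeq transcription start were searched on both strands, at 14 starts of the 10 genes. The cAMP response element TGACGTCA was found in 1 member, Pnpla3, and in 1.77% of all 27025 genes. The E-box CACGTG, a core that many helix-loop-helix factors bind, was found in Mgll and Lipe and in 6.86% of all genes. The PPAR direct repeat in a consensus form, AGGNCANAGGNCA, was in none of the 10 and in 0.4% of all genes. The GC box GGGCGGGG was in 4 members and 18% of all genes, and TATAA was in 2, the neighbours Plin4 and Plin5, and in 25.8% of all genes. The promoters with the cAMP response element or the E-box are shown 5′ to 3′ up to the base before the start, with the motif in capitals: the cAMP response element of Pnpla3 (chr15:84167566-84167815, plus strand, 46 to 39 bases before the start), and the E-box of Mgll (chr6:88724162-88724411, plus strand, 44 to 39 bases before, at 1 of its 2 starts) and of Lipe (chr7:25395988-25396237, minus strand, 155 to 150 bases before, at 1 of its 2 starts).
Pnpla3 promoter: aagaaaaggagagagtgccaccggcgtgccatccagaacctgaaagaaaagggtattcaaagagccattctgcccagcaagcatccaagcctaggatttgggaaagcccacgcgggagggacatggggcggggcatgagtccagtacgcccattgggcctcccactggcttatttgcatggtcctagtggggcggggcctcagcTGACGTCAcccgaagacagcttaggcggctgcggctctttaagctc
Mgll promoter: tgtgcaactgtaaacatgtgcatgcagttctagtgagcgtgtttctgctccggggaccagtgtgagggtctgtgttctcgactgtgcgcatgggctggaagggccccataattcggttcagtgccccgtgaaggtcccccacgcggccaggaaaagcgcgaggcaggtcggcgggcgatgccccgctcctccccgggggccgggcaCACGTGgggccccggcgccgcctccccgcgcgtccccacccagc
Lipe promoter: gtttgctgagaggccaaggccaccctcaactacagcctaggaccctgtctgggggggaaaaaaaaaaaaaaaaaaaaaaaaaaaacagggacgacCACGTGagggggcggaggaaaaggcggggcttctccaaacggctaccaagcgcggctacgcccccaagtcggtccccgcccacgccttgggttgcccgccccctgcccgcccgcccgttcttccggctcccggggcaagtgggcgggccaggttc
A match is a description of the letters and not of a bound site. The 3 genes shown fell with the diet in both genotypes, as did Pnpla2, Plin1, Plin4, Cidec and G0s2, which lack both motifs in these windows.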

How the data were processed

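RNA of epididymal fat (100 ng per sample) was hybridised to 13 Affymetrix arrays, per the labels' protocols. Each deposited value is a log2 expression level of a probe set on an array, made by the authors with RMA, per the submitters' processing notes, which give no version. No further normalisation was applied. Of 35556 probe sets, 21218 were paired with 1 gene, 1881 with several and 12457 with none in the platform annotation. Those with 1 gene were kept, the one with the highest mean per gene, which gave 18820 genes, of which 18790 matched the GRCm38.p6 table of RefSeq by Entrez ID. The number of arrays limits the precision.

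limma 3.58.1 (R 4.3.3, data.table at version 1.17.8) fitted 1 mean per group to all 13 arrays with an intensity trend, and p-values were adjusted by Benjamini-Hochberg over the 18820 genes of each contrast at 0.05. A plus-minus sign after a change gives limma's SE. The steps were tested on simulated arrays. Tables and figures used Python 3.11.15, pandas 2.3.3, numpy 2.4.6 and matplotlib 3.10.9. The 10 members and all lists were chosen with earlier results of these data known, so no list was tested as a set. Of 208 list entries, 20 had no probe set of their own and 1 was matched by a synonym. The members and P2rx7 were always named, and of each wider list up to 4 passing genes with the smallest p per diet contrast; the other alternatives are given in the closing section. Same-numbered arrays of different groups did not deviate together in general (18 pairs, r from -0.30 to 0.22, 6 over 0.1). Replicates 2 of both wild-type groups and of chow-fed knockout mice did so weakly (r 0.22, 0.22 and 0.14). Replicate 2 of knockout mice on high-fat diet ran against them (-0.14, -0.30 and -0.03). The differently numbered pair of high-fat arrays that stood apart reached 0.53. The labels tie no number to an animal, litter or day, so arrays were not paired. A fit with a replicate block is given in the closing section. Promoters of 250 bases came from RefSeq (GRCm38.p6), where all 10 genes matched.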

Additional observations from a re-analysis of the deposited data

Results flagged for a closer look

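Among the 4 arrays of knockout mice on high-fat diet, replicate 1 lay far above the other 3 for 3 of the 10 genes. The gap to the nearest array, as a share of the whole range of the group, was 0.968 for Cidec, 0.853 for Mgll and 0.848 for Abhd5. Only this group was large enough for the criterion, so 10 sets of values were examined, and chance marks about 5% of such sets. The 10 sets come from the same 4 arrays and are not separate trials, so 3 of 10 cannot be held against that 5%. Such gaps were not counted over all genes. The same array held the highest liver and adipocyte marker means of its group, and their part in these gaps was not tested.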

How the results depend on the processing

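In knockout and wild-type mice 8 of 10 members fell, and over the scaling, variance, probe set, filter and weight alternatives and single arrays left out the counts were 7 to 9 and 8 to 9, apart from the following. Centring arrays on adipocyte markers left 4 calls in knockout mice, all higher, and 5 in wild-type mice, 4 of them higher: Abhd5 0.44 and 0.48, Cidec 0.43 and 0.43, Mgll 0.30 and 0.31 and Plin5 0.81 and 0.92, with Plin4 lower in wild-type mice (-0.27). Members that turned sign there without passing were Plin1 0.10 and 0.093, Lipe 0.084 and 0.038, Pnpla2 0.042 and 0.087, with G0s2 (0.13) and Plin4 (0.044) in knockout and Pnpla3 (0.022) in wild-type mice. The liver covariate left 5 calls in wild-type mice. Of members by genotype on high-fat diet, 0 to 1 passed with arrays left out; that 1, Plin4, also passed without both arrays that stood apart (count 1), an alternative chosen after seeing the data. Abhd5 passed as lower in 8 of 26 alternatives in each genotype and as higher in 1, the adipocyte centring. The replicate block left 8 members lower in knockout and 9 in wild-type mice (Abhd5 joined) and 0 by genotype, and changed no other member's call; over all genes, the block left 0 higher and 0 lower by genotype on high-fat diet, against 2 and 6, and 1 and 5 on chow, against 9 and 16. The cause of these shifts was not tested.

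Small values turned sign without passing. With arrays left out, Plin5 ranged from -0.10 to 0.18 (diet in knockout), -0.21 to 0.25 (diet in wild type), -0.24 to 0.045 (genotype on chow), -0.31 to 0.16 (genotype on high-fat diet), -0.20 to 0.033 (averaged) and -0.21 to 0.26 (interaction); Plin4 on chow from -0.038 to 0.035; G0s2 from -0.25 to 0.038 on chow and -0.0075 to 0.19 averaged; and the Plin1 interaction from -0.027 to 0.18. Array weights gave Plin5 -0.091 (diet in wild type) and 0.13 (interaction) and Plin4 -0.011 on chow, where array medians gave -0.036 and adipocyte centring -0.025. The liver covariate gave Plin5 0.33 on chow, 0.026 on high-fat diet and 0.18 averaged, G0s2 0.10 on chow and the Plin1 interaction -0.021. Without both arrays that stood apart, Plin5 was -0.21 (diet in wild type), 0.15 (genotype on high-fat diet), 0.027 (averaged) and 0.25 (interaction). Plin5 was not in the brighter 50% of genes and has no value under that filter.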

Other observations

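Lep, the gene of the satiety hormone leptin, rose with the diet by 0.29 in knockout and 0.37 in wild-type mice, the only one of the 17 adipocyte markers to do so. The falls of other markers went past those of the 10 genes: Pck1, an enzyme on the path to the glycerol phosphate used in re-esterification, changed by -2.42 in knockout and -2.39 in wild-type mice, and Slc2a4, the insulin-responsive glucose transporter, by -2.25 and -2.31. Both genes were chosen after their values were seen. Over all genes 19.7% fell and 14.5% rose in knockout mice, and 18.1% fell and 17.7% rose in wild-type mice. Mesothelial markers fell for 9 of 9 genes in knockout mice and 7 of 9 in wild-type mice, with medians of -1.15 and -1.14. Of the 10 brown and beige adipocyte markers, 2 rose and 0 fell in knockout mice and 5 rose and 1 fell in wild-type mice. Endothelial markers fell for 2 and 7 of 10 in knockout and wild-type mice and rose for none. Of the 9 fibroblast and progenitor markers, 5 rose and 1 fell in knockout mice, and 4 rose and 2 fell in wild-type mice. Skeletal muscle markers fell for 3 and 2 of 10, lymphocyte markers for 1 and 0 of 9 and epididymis markers for 1 and 0 of 5 in knockout and wild-type mice, with none rising. The endothelial and epididymis counts in knockout mice lie near the share of all genes that fell. So do the skeletal muscle count and the fibroblast and progenitor falls in wild-type mice. In lists of 5 to 10 genes a single gene moves the share widely, and no list was tested as a set.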
